A study of Mus musculus with 8 samples.

Results

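The 46 genes described here are the chromosomal neighbours of Crim1, the gene that carries the trap in these mice. They were listed by name as lying near Crim1 on mouse chromosome 17, with Crim1 itself left out. The rule names their place and not their signal, but the list was chosen with earlier results of these data known. It leaves out 20 other protein-coding genes that lie between its outermost members. The listed genes are 46 of the 19057 genes that the arrays name. The GRCm38.p6 gene table put 45 of them on chromosome 17, with 24 before Crim1 (at lower coordinates) and 21 after it. It put Ppp1cb on chromosome 5, so Ppp1cb is no neighbour in fact. It stays in counts over the whole list and is left out of those for either side of Crim1.

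RNA came from kidney cells of adult mice of strain C57B6/CD1, taken with magnetic beads against CD31, a surface protein of endothelial cells. The mutants carried Crim1KST264 on both chromosomes, and the wildtypes carried no trap. Samples numbered 1 and 3 are the females of each genotype and those numbered 2 and 4 the males. Each sample was hybridised to 1 Illumina array, which makes 8 arrays. The trap acts in every cell that would express Crim1, and the sources used here name neither the parent embryonic stem cell line nor the number of backcrosses. Whether each array stands for its own mouse is not stated, so the p-values reflect the spread among arrays, part of which may be technical.

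A gene trap is a vector that inserts into a gene in embryonic stem cells, splices onto its transcript and cuts it short. The DNA on either side of the trap comes from the stem cell donor strain. When the allele is selected through crosses to other strains, linked genes stay with it until recombination separates them, so homozygous mutants can carry donor alleles of the neighbours where wildtype mice carry other alleles. Such an allele can alter a gene's transcription, and a base difference under a short array probe can lower its signal with no change in the RNA. Probe sequences and mouse genotypes along the chromosome were not used here, so these cannot be told apart in what follows.

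Of the 46 neighbours, 40 had at least 1 named probe, 82 probes in all. Srd5a2, Atl2, Srsf7, Cebpz, Map4k3 and Trmt61b had none named here. A probe was tested when its detection p-value was under 0.05 on at least 2 of the 8 arrays, which held for 54 probes of 36 neighbours. Vit, a matrix protein, and Sult6b1, a sulfotransferase, were not detected on any array. The inflammasome gene Nlrc4 was detected on 1 array, and so was each of the probes of Sos1, a Ras activator, so none of the 4 was tested. The 36 tested neighbours comprise 21 before Crim1, 14 after it and Ppp1cb, and 30 of them were detected on all 8 arrays. Each is represented by its brightest tested probe, and levels below are log2 intensities after background correction and quantile normalization.

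The arrays were mostly alike in brightness. The median raw intensity ran from 83.2 to 98.5, and 45.1% to 48.7% of probes were detected. Mutant male 2 was the lowest array in both, and the next lowest values were 92.4 and 46.5%. On the second principal component (18.4% of the variance) mutant male 2 stood at 53.8 and wildtype male 4 at the other end, at -39.9. The remaining arrays ran from -14.9 to 3.47.

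Crim1 itself, a transmembrane protein that binds bone morphogenetic proteins and growth factors, fell in the mutants. Its brightest probe stood at 5.82 and 5.82 in mutant females and 4.67 and 4.88 in mutant males, against 7.98 and 7.91 in wildtype females and 7.66 and 6.97 in wildtype males. The log2 difference between mutant and wildtype, with both sexes weighted equally, was -2.33 (SE 0.17, limma adjusted p = 0.037). A second probe gave -2.29 (SE 0.21, limma adjusted p = 0.037). With the sample number as a replicate block the adjusted p for Crim1 was 0.159, and leaving out single arrays gave 0.0229 to 0.219. The Crim1 signals thus fit the genotype labels on all 8 arrays.

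No neighbour passed the test for a genotype effect: limma called 0 of 36 at an adjusted p under 0.05, the lowest being 0.350, while 5 of the 12476 tested genes (0.0401%) were called. At an unadjusted p under 0.05 the count was 9 of 36 (25%), against 8.38% of all tested genes. Lclat1, among the 9, and Alk, a receptor kinase, were detected on wildtype arrays only, so they entered the test through the brighter group. With a stricter filter, a detection p under 0.01 on at least 4 arrays, both dropped out and the count was 8 of 32, against 8.44% of all genes. Of the 9, 8 had their lower mean in the mutants (4.45% of all genes), and Galnt14 had its higher mean there (3.93% of all genes). The median difference of the 36 neighbours was -0.09, against 0.02 over all genes. Leaving out single arrays, mutant male 2 among them, gave medians of the neighbours from -0.15 to -0.073.

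The 2 sides of Crim1 gave unlike counts. Before Crim1, 17 of 21 tested neighbours (81.0%) had a difference below 0, against 45.7% of all tested genes, and 8 of the 21 (38.1%) had an unadjusted p under 0.05. Their median difference was -0.26. With the stricter filter, 13 of 17 (76.5%) lay below 0 and 7 of 17 (41.2%) had an unadjusted p under 0.05. The count below 0 fell to 13 of 21 with the mean of endothelial marker genes as a covariate, a fit described below. Leaving out single arrays gave 13 to 17 of 21 below 0. Shares over all genes were not taken in these fits. After Crim1, 7 of 14 (50%) lay below 0, 1 of 14 had an unadjusted p under 0.05, and the median was 0.01, which turned to -0.0074 when arrays were scaled by their medians and to -0.042 over the mean of each gene's probes. The rest of chromosome 17, with 568 tested genes and Crim1 left out, had 48.2% below 0, 9.68% with an unadjusted p under 0.05 and a median of 0.0080. There limma called 1 of the 568 (adjusted p = 0.037), against 5 of the 12476 tested genes. Another 20 protein-coding genes lie between the outermost neighbours without being in the list. Of these 11 were tested, 5 of the 11 lay below 0 and 1 had an unadjusted p under 0.05. Before Crim1 alone, 2 of 6 such genes lay below 0 and 0 of 6 had an unadjusted p under 0.05. The difference between the sides was not tested.

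**Figure D1:**
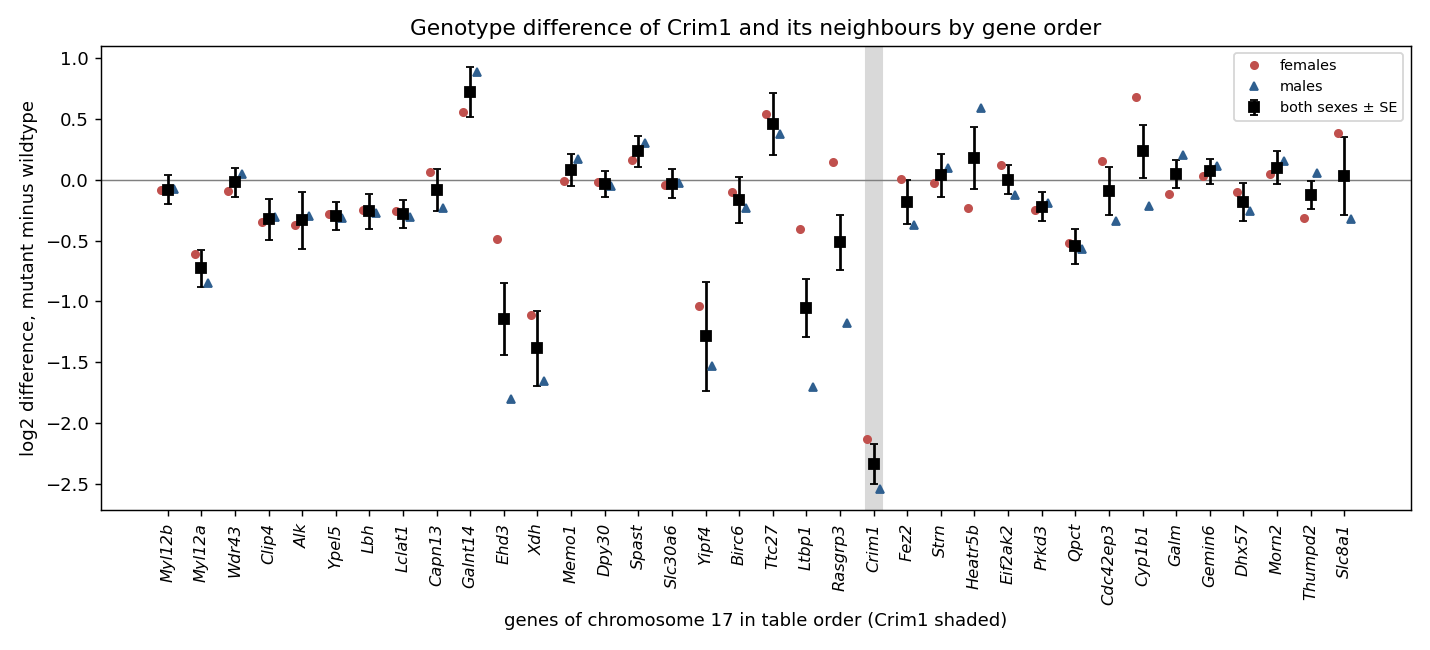
Log2 difference, mutant minus wildtype, of Crim1 (shaded) and the 35 tested neighbours on chromosome 17, left to right in gene order. Black squares are both sexes with the standard error of the limma model, red circles females and blue triangles males. The differences over both sexes past -1 belong to Ehd3, Xdh, Yipf4, Ltbp1 and Crim1, and Memo1, Dpy30 and Slc30a6 lie near 0 between Xdh and Yipf4.

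**Figure D2:**
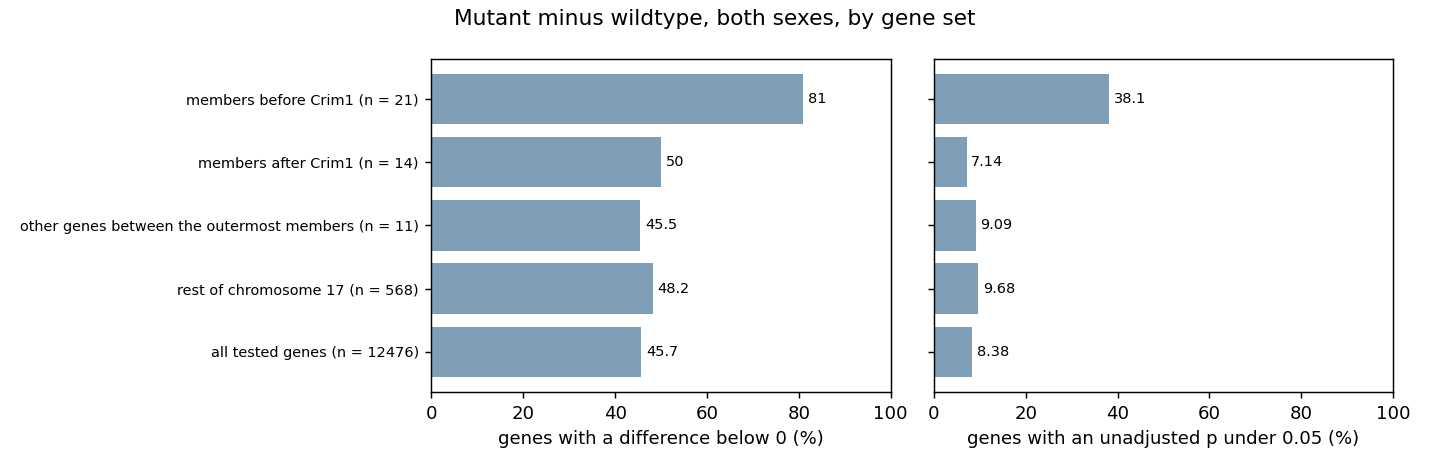
Share of genes with a difference below 0 (left, %) and share with an unadjusted p under 0.05 (right, %) for the tested neighbours on each side of Crim1, the other genes among them, the rest of chromosome 17 and all tested genes. The bars for the neighbours before Crim1 reach 81.0% and 38.1%, and those of the other sets run from 45.5% to 50% and from 7.14% to 9.68%.

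In 5 of the 36 neighbours (13.9%) all 4 mutant arrays lay below all 4 wildtype arrays, which held for 1.23% of all tested genes. In 0 of the 36 did all mutant arrays lie above, against 1.82% of all genes. These 5 were Myl12a, Ypel5, Ehd3 and Xdh before Crim1 and Qpct after it.

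Myl12a encodes a regulatory light chain of nonmuscle myosin and lies 32 genes before Crim1. Its probe stood at 7.75 and 8.34 in mutant females and 7.94 and 8.05 in mutant males, against 8.71 and 8.61 in wildtype females and 8.91 and 8.77 in wildtype males. The highest mutant array thus stayed below the lowest wildtype array in each sex. The difference was -0.73 (SE 0.15, limma adjusted p = 0.350), or 1.66-fold lower in the mutants, with -0.61 in females and -0.85 in males. The 4 mutant arrays averaged 8.02 ± 0.248 and the 4 wildtype arrays 8.75 ± 0.126 (SD). Leaving out single arrays gave -0.88 to -0.58.

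Myl12b, the gene next to Myl12a and its close sister, was looked at after its values were seen. Its 3 probes were bright and gave differences of -0.08, -0.09 and -0.09. The brightest averaged 13.43 ± 0.199 in mutants and 13.51 ± 0.214 in wildtypes (SD, n = 4 each), with overlapping arrays. Cross-hybridisation between such similar transcripts was not tested.

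Ypel5, a small zinc-binding protein of a ubiquitin ligase complex, lies 19 genes before Crim1. Its brightest probe stood at 10.93 and 11.07 in mutant females and 10.80 and 11.03 in mutant males, against 11.20 and 11.36 in wildtype females and 11.30 and 11.17 in wildtype males. The genotypes did not overlap, but the gap between the nearest arrays was narrow. The difference was -0.30 (SE 0.11, limma adjusted p = 0.516), with -0.28 in females and -0.32 in males. The other probes of Ypel5 gave 0.02 and -0.26, so the probes of 1 gene disagreed.

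Ehd3, an ATPase of endosomal recycling that marks glomerular endothelium in the mouse kidney, lies 14 genes before Crim1. It stood at 7.40 and 8.08 in mutant females and 6.86 and 8.13 in mutant males, against 8.16 and 8.30 in wildtype females and 9.16 and 9.44 in wildtype males. The wildtype males were highest, and the females of the 2 genotypes were separated by less than 0.1 at their nearest arrays. The difference was -1.15 (SE 0.29, limma adjusted p = 0.383), with -0.49 in females and -1.80 in males. Without mutant male 2 it was -0.83.

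Xdh, the enzyme that turns hypoxanthine and xanthine into uric acid, is the next gene after Ehd3 and had the widest difference of the 36. It stood at 6.76 and 7.96 in mutant females and 7.10 and 7.33 in mutant males, against 8.11 and 8.84 in wildtype females and 8.56 and 9.17 in wildtype males. Every wildtype array was above every mutant array. The difference was -1.38 (SE 0.31, limma adjusted p = 0.352), or 2.61-fold lower in the mutants, with a 95% interval from -2.11 to -0.66. It was -1.11 in females and -1.66 in males, and leaving out single arrays gave -1.68 to -1.08.

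Qpct, a glutaminyl cyclase that modifies the amino ends of secreted peptides, lies 13 genes after Crim1. It stood at 6.54 and 6.48 in mutant females and 6.06 and 6.47 in mutant males, against 6.96 and 7.11 in wildtype females and 6.66 and 7.02 in wildtype males. The genotypes did not overlap and the sexes gave near-equal differences, -0.52 in females and -0.57 in males. The difference over both was -0.55 (SE 0.14, limma adjusted p = 0.385). Among the tested genes after Crim1 in the list it was the only one with an unadjusted p under 0.05.

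The 250 bases before the annotated start of transcription are shown for the neighbours whose genotypes did not overlap and for Myl12b, the sister of Myl12a, because the comparison of alleles turns on these genes. The sequences are RefSeq's for the reference mouse genome (GRCm38.p6), not those of these mice. Windows for Xdh and Qpct are not shown here. Capitals mark matches, on either strand, to CCAAT (the CCAAT box), GGGCGG (the GC box), TATAAA (the TATA box) and AGGAAG (an ETS factor core), and overlapping matches run together.
Myl12b, chr17:70990517-70990766, minus strand: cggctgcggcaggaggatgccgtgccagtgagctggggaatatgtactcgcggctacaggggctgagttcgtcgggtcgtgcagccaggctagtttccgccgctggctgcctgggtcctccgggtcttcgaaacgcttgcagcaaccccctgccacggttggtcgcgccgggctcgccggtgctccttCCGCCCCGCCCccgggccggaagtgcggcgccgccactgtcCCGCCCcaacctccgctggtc
Myl12a, chr17:71002534-71002783, minus strand: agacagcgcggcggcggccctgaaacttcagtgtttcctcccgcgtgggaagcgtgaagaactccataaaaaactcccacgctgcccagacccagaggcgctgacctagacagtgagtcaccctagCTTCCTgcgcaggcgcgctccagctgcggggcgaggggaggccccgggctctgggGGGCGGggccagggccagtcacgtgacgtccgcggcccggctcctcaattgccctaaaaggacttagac
Ypel5, start 1, chr17:72836378-72836627, plus strand: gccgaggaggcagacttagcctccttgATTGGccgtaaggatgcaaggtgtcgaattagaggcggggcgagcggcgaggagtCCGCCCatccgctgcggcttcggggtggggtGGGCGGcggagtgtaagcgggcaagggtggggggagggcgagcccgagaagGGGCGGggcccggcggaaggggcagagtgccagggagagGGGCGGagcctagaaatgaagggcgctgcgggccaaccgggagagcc
Ypel5, start 2, chr17:72837286-72837535, plus strand: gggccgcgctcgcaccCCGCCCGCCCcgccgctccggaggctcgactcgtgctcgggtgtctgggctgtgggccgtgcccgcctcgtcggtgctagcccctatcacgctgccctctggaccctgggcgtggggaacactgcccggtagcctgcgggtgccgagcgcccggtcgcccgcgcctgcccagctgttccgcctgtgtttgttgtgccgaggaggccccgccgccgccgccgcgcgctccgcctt
Ehd3, chr17:73804591-73804840, plus strand: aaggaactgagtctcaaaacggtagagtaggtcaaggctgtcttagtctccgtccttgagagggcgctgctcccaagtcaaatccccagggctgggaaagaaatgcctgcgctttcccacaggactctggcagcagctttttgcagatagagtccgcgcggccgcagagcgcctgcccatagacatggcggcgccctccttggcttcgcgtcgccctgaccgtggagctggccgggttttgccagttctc
The window of Myl12a held 1 GC box and 1 ETS core, and that of Myl12b held 3 GC boxes. The windows of Ypel5 held 1 CCAAT box with 4 GC boxes, and 2 GC boxes. The window of Ehd3 held none of the 4 motifs. Of the 32851 windows in the table, 33.8% held the CCAAT box, 32.7% the GC box, 12.4% the TATA box and 29.5% the ETS core. The G and C content was 71.2% for Myl12b, 66.0% for Myl12a, 70.4% and 76.8% for Ypel5 and 60.0% for Ehd3, against a median of 52.4% over all windows.

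The other neighbours with an unadjusted p under 0.05 had genotypes that overlapped. Yipf4, a Golgi membrane protein 6 genes before Crim1, stood at 4.88 and 7.06 in mutant females and 5.59 and 5.35 in mutant males, against 7.22 and 6.80 in wildtype females and 6.68 and 7.31 in wildtype males. Mutant female 3 lay among the wildtype arrays, and the other mutant arrays lay well below. The probe was detected on 3 of 4 mutant arrays and on 4 of 4 wildtype arrays. The difference was -1.28 (SE 0.45, limma adjusted p = 0.479), and it was -1.82 without mutant female 3 and -0.74 without mutant female 1.

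Ltbp1, which tethers latent transforming growth factor beta to the matrix, lies 3 genes before Crim1. Its brightest probe stood at 8.14 and 8.30 in mutant females and 7.56 and 8.67 in mutant males, against 8.49 and 8.76 in wildtype females and 9.71 and 9.91 in wildtype males. The wildtype males were highest, and mutant male 4 lay above wildtype female 1. The difference was -1.05 (SE 0.24, limma adjusted p = 0.352), with -0.41 in females and -1.70 in males. Leaving out single arrays gave -1.33 to -0.77. A dimmer probe gave 0.18 (SE 0.29), of opposite sign, and the mean over both tested probes gave -0.44. The other 5 probes of Ltbp1 were not tested.

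Galnt14, which starts mucin-type O-glycosylation, lies 15 genes before Crim1 and was the 1 neighbour of these 9 whose mean was higher in the mutants. It stood at 7.46 and 7.08 in mutant females and 8.21 and 8.02 in mutant males, against 6.31 and 7.13 in wildtype females and 7.37 and 7.09 in wildtype males. Mutant males lay above all wildtype arrays, and mutant female 3 lay among them. The difference was 0.72 (SE 0.20, limma adjusted p = 0.405), with 0.55 in females and 0.89 in males.

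Lclat1, an acyltransferase that remodels cardiolipin, lies 17 genes before Crim1. Its probe was not well above background in any mutant and was detected on 2 of 4 wildtype arrays. It stood at 5.01 and 5.19 in mutant females and 4.64 and 4.75 in mutant males, against 5.34 and 5.38 in wildtype females and 5.14 and 4.85 in wildtype males. The fitted difference was -0.28 (SE 0.12, limma adjusted p = 0.563), and no fold is given because the signal was near the detection limit in both genotypes.

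The size of several differences depended on the processing. In the authors' deposited table, whose lowest value is 7.15, the difference was -0.45 for Myl12a, -0.68 for Ehd3, -0.76 for Xdh, -0.33 for Yipf4, -0.18 for Qpct, 0.32 for Galnt14 and -0.055 for Lclat1. Each is smaller by over 1.5 times than the value above, with the same sign. Without background correction Yipf4 had -0.62, Qpct -0.31 and Lclat1 -0.12.

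**Figure D3:**
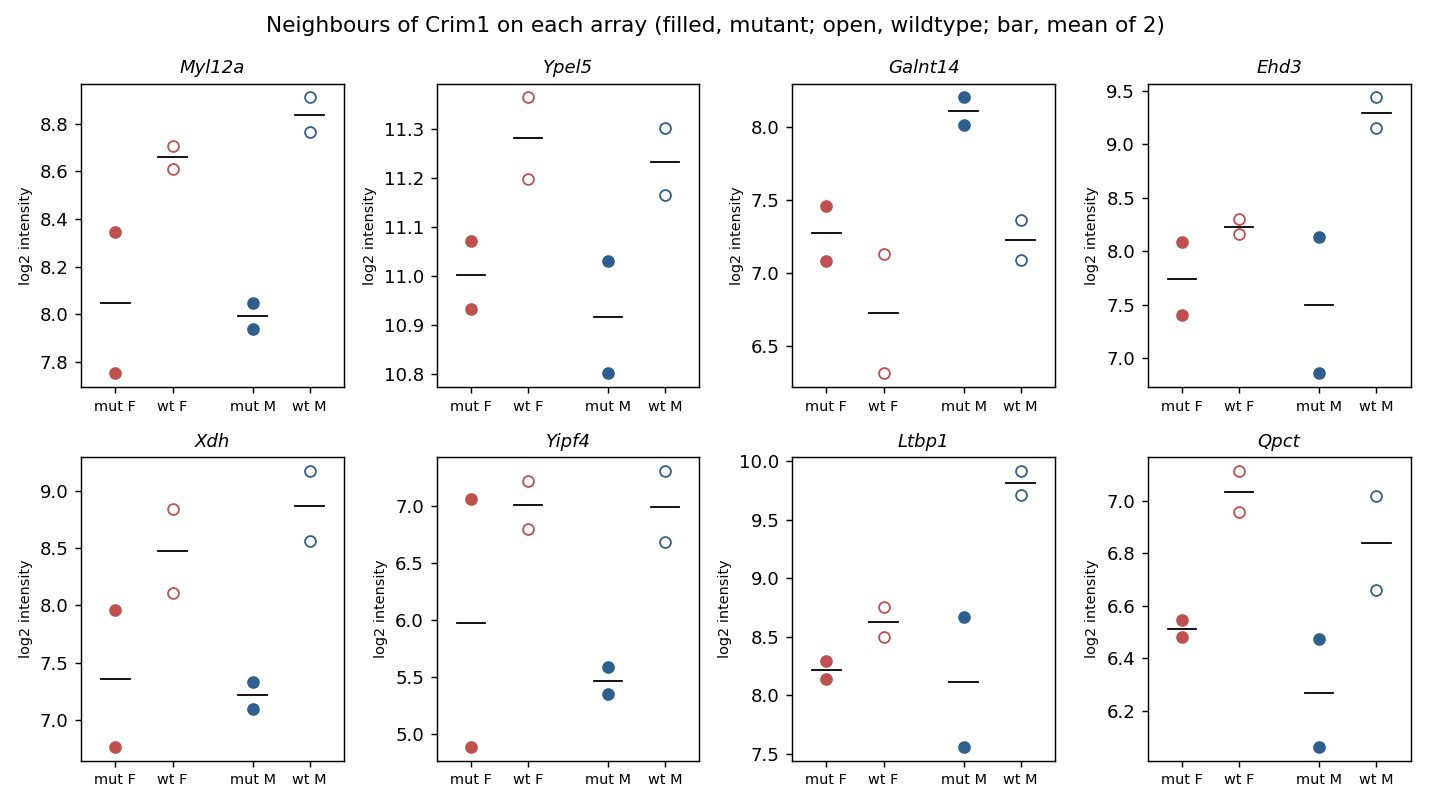
Log2 intensity on each array for the neighbours with an unadjusted p under 0.05 in the genotype contrast, Lclat1 left out. Filled points are mutant and open points wildtype, red females and blue males, and each bar is the mean of 2 arrays. Mutant points lie below all wildtype points for Myl12a, Ypel5, Ehd3, Xdh and Qpct.

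The widest differences were not those of the nearest listed gene on either side of Crim1. Fez2, a cytoplasmic adaptor for axon and vesicle transport, follows Crim1 directly. The 2 genes overlap in the table and are read from opposite strands, and the sources used here do not say where their probes lie or on which strand. Fez2 stood at 10.82 and 11.05 in mutant females and 10.70 and 10.88 in mutant males, against 10.85 and 11.01 in wildtype females and 11.54 and 10.78 in wildtype males. Its arrays overlapped and the difference was -0.18 (SE 0.18, limma adjusted p = 0.879), with a 95% interval from -0.61 to 0.25.

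Strn, the scaffold of the striatin phosphatase complex, had a difference of 0.03 (SE 0.17), with mutant arrays from 5.75 to 6.23 and wildtype arrays from 5.71 to 6.11. Heatr5b, which works with clathrin adaptors, had 0.18 (SE 0.26) at its brightest probe and 0.0045 at the other. Eif2ak2, the double-stranded RNA sensor PKR, had -0.0014 (SE 0.12), with mutant arrays from 9.73 to 10.26 and wildtype arrays from 10.02 to 10.15. These 3 genes after Crim1 thus showed differences no wider than about 1 standard error, and a 95% interval for Eif2ak2 ran from -0.28 to 0.28.

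On the other side, Rasgrp3, a diacylglycerol-activated exchange factor for Ras and Rap in endothelial cells, is the nearest listed gene before Crim1. It stood at 9.73 and 10.12 in mutant females and 9.54 and 10.40 in mutant males, against 9.61 and 9.95 in wildtype females and 10.94 and 11.34 in wildtype males. The wildtype males lay above the other 6 arrays. The difference was 0.14 in females and -1.17 in males, and -0.51 over both (SE 0.23, limma adjusted p = 0.592). Without mutant male 2 it was -0.30. Ttc27, a tetratricopeptide repeat protein, had 0.45 (SE 0.26), from 0.21 without wildtype male 4 to 0.70 without wildtype male 2. Its wildtype arrays spread from 8.54 to 9.53 while the mutant arrays ran from 9.29 to 9.55. Birc6, a giant ubiquitin enzyme that restrains apoptosis, had -0.17 (SE 0.19) and -0.32 (SE 0.14) at probes that were detected on 3 and 2 arrays. The probe with -0.32 was detected on wildtype arrays only, so it entered the test through the brighter group.

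**Figure D4:**
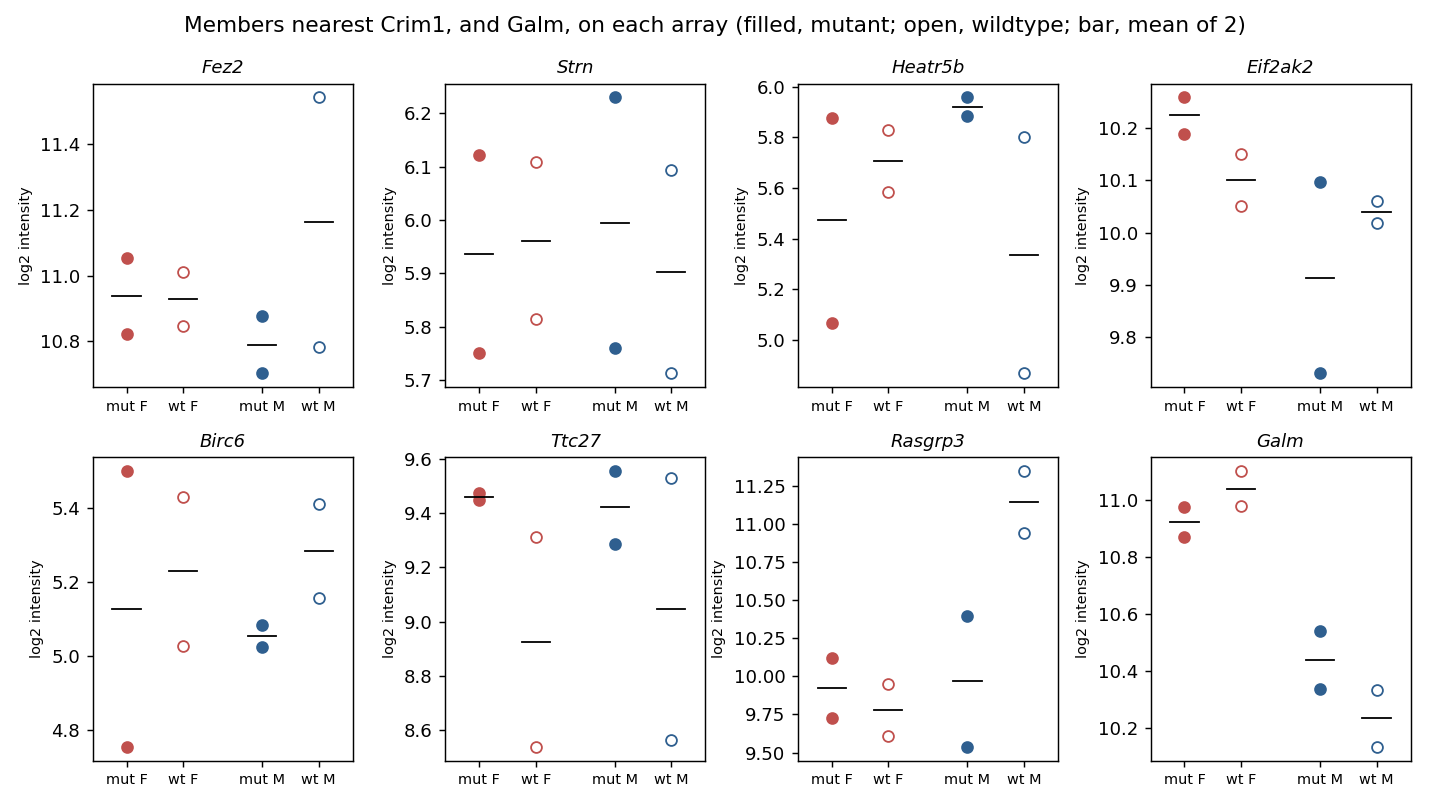
Log2 intensity on each array for the tested neighbours nearest Crim1 that the plot of larger differences leaves out, and for Galm. Filled points are mutant, open points wildtype, and each bar is the mean of 2 arrays. Genotypes overlap in every panel, while in Galm the males lie below the females.

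Along the chromosome the differences did not shrink steadily with distance from Crim1, counted in genes and not in bases. Myl12a, with -0.73, lies 32 genes away, Xdh, with -1.38, lies 13 genes away, and Fez2, with -0.18, is the next gene. Yipf4, with -1.28, and Ltbp1, with -1.05, lie 6 and 3 genes away. What this order means for alleles carried along with the trap was not tested. Neighbouring genes also gave unlike values. Galnt14, with 0.72, is followed by Ehd3, with -1.15, and Memo1 and Dpy30, which lie between Xdh and Yipf4, had 0.08 and -0.04. Memo1, Dpy30, Spast and Slc30a6 separate the pair Ehd3 and Xdh from Yipf4 and Ltbp1, so the wide differences did not form 1 unbroken block in the list.

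The remaining 17 tested members, Ppp1cb among them, had differences from -0.33 to 0.23, with 5 above 0 and 12 below, and none had an unadjusted p under 0.05 at its brightest probe. They include Dpy30, a subunit of histone methyltransferase complexes, the microtubule-severing enzyme Spast, the zinc transporter Slc30a6, the kinase Prkd3 and the sodium-calcium exchanger Slc8a1. Ppp1cb, the phosphatase subunit on chromosome 5, had -0.0026 (SE 0.12) at its brightest probe and 0.07 at another.

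Several probes were tested for 12 of the members, and 6 of these had probes of both signs. Lbh, a transcriptional cofactor, was the other gene besides Ltbp1 whose probes differed in sign and by over 0.5. Its brighter probe gave -0.26 (SE 0.15), with 10.83 ± 0.185 in mutants and 11.09 ± 0.156 in wildtypes, and its dimmer probe gave 0.35 (SE 0.22), with 8.46 ± 0.375 and 8.11 ± 0.292 in the same groups (SD, n = 4 each). Spast, picked out after its values were seen, had 0.23, 0.19, 0.38 and -0.12 at 4 probes, the last of them the dimmest. The probes of Prkd3, also picked out afterwards, were alike at -0.22, -0.28 and -0.29.

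Within each sex limma called 0 of 36 neighbours, against 0% of all genes in females and 0% in males. At an unadjusted p under 0.05 the females had 3 of 36, Myl12a, Xdh and Qpct, against 3.86% of all genes. The males had 8 of 36, with Galnt14, Ehd3, Yipf4, Ltbp1 and Rasgrp3 besides those 3, against 11.1% of all genes. The 9 neighbours with an unadjusted p under 0.05 over both sexes had the same sign in females and males, and in all 9 the male difference was the wider. These 9 were picked by the mean of the female and male differences, which favours a shared sign. Among all genes, too, more had an unadjusted p under 0.05 in males (11.1%) than in females (3.86%). Over all 36, the sign was the same in 22. The shares of all genes with a shared sign or a wider male difference were not taken.

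The difference between the sexes in the genotype effect was tested as an interaction, which called 0 of 36 neighbours and 0% of all genes. The unadjusted p was under 0.05 in 2 of 36, against 6.78% of all genes. These were Rasgrp3, whose male effect minus female effect was -1.32 (SE 0.45, limma adjusted p = 0.669), and Ltbp1, with -1.29 (SE 0.48, limma adjusted p = 0.688).

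Endothelial marker genes were also lower on average in the mutants, though 0 of them passed the test. Of 15 pan-endothelial genes 14 were tested, 13 of them detected on all 8 arrays, and Kdr was not tested. All 14 had a genotype difference below 0, against 45.7% of all tested genes. Their median was -0.59, and the limma call count was 0 of 14. The median was -0.21 in females and -1.0 in males. The mean of the list over its genes ran from 10.62 to 11.50 on mutant arrays and from 10.97 to 12.15 on wildtype arrays, highest in wildtype males. In such sorted samples fewer cells of a type and less RNA per cell cannot be told apart. Tubule markers were bright in every sample, with 9 of 9 proximal tubule genes detected on all arrays. The median genotype difference of these 9 was 0.21, against -0.18 for loop and distal tubule genes and 0.35 for collecting duct genes. It was 0.43 for macrophage genes, 0.06 for podocyte genes and 0.10 for mural and mesangial genes. The 3 tested fibroblast genes had a median difference of 1.27, and Lum, Col1a1 and Col1a2 of that list were not tested.

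With the endothelial mean of each array as a covariate, 4 of 36 neighbours had an unadjusted p under 0.05, and 3 of the 21 before Crim1. Of these 21, 13 then had a difference below 0. The shares over all genes in this fit were not taken, so the lower counts are not shown to be particular to the neighbours. The difference was then -0.35 for Ehd3, -0.41 for Ltbp1, 0.08 for Rasgrp3, 0.22 for Ttc27, -0.18 for Ypel5 and -0.26 for Qpct, each smaller by over 1.5 times than without it, or of opposite sign. It was -0.64 for Myl12a, -0.94 for Xdh, -1.09 for Yipf4 and 0.62 for Galnt14. The endothelial list used as the covariate was itself lower on average in the mutants. What part of any of these values comes from the cell mixture was not tested.

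**Figure D5:**
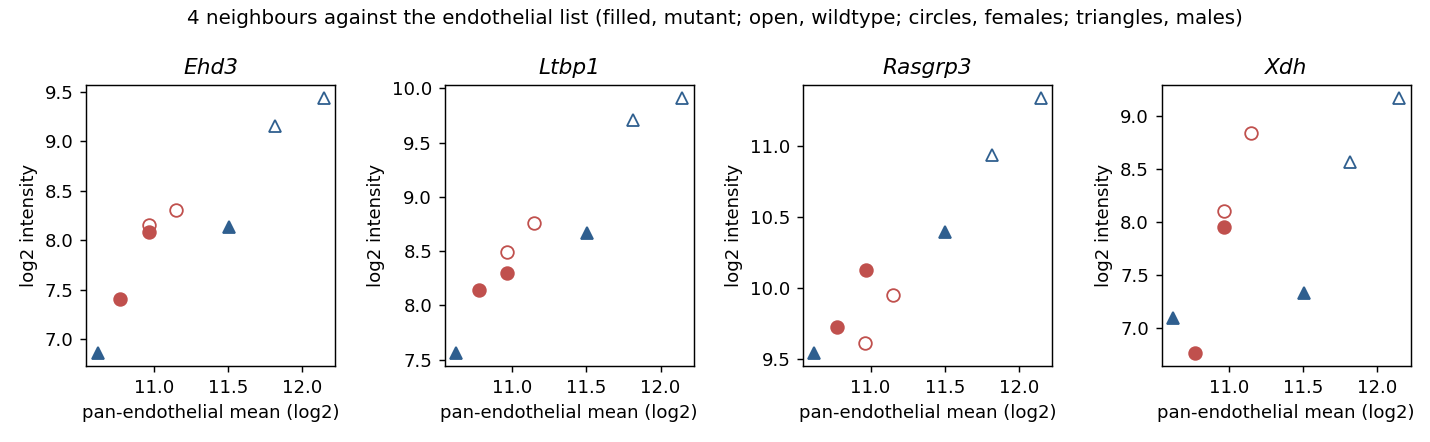
Log2 intensity of Ehd3, Ltbp1, Rasgrp3 and Xdh (vertical axes) against the mean log2 intensity of the pan-endothelial genes (horizontal axes) on the 8 arrays. Filled symbols are mutant and open symbols wildtype, circles females and triangles males. The wildtype males have the highest values on both axes for Ehd3, Ltbp1 and Rasgrp3, while for Xdh wildtype female 3 lies above wildtype male 2.

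The sex contrast, male minus female with genotypes weighted equally, called 1 of 36 neighbours, against 3.73% of all genes. Galm, which interconverts the anomers of galactose, stood at 10.54 and 10.34 in mutant males and 10.33 and 10.13 in wildtype males, against 10.87 and 10.97 in mutant females and 10.98 and 11.10 in wildtype females. All males lay below all females. Galm fell to 10.34 ± 0.166 in males, against 10.98 ± 0.0939 in females (SD, n = 4 each), a difference of -0.64 (SE 0.11, limma adjusted p = 0.0356). Leaving out mutant male 2 kept that call (adjusted p = 0.0466), and leaving out any of the other 7 arrays gave 0.0720 to 0.117. The genotype difference of Galm was 0.04 (SE 0.11).

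At an unadjusted p under 0.05, 10 of 36 neighbours (27.8%) differed by sex, against 21.5% of all genes, and sexes did not overlap in 5 of 36 (13.9%), against 14% of all genes. Both shares are near those of all genes. The widest sex differences besides Galm were 0.70 (SE 0.23) for Rasgrp3, 0.67 (SE 0.20) for Galnt14, 0.65 (SE 0.22) for Cyp1b1, a hydroxylase of steroids and aromatic compounds, and 0.54 (SE 0.24) for Ltbp1. Their limma adjusted p-values ran from 0.135 to 0.265. The endothelial list had a median sex difference of 0.59, in the same direction as these 4 genes. Podocyte, macrophage and fibroblast lists had medians of 0.39, 0.29 and 0.07. Those of the tubule, collecting duct and mural lists ran from -0.42 to -0.03. Whether any of these shifts bears on the sex differences of the neighbours was not tested.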

How the data were processed

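RNA of CD31-sorted kidney cells was measured on 8 one-colour Illumina arrays. The deposited signals are raw intensity values on a linear scale for 45281 probes, each with a detection p-value, per the file headers. The authors' deposited processed values are log2-like, with medians from 7.46 to 7.47, matched their own arrays (r from 0.977 to 0.986), and were used as an alternative. The sources used here do not give their background correction, normalization or centring.

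Signals were background-corrected with normexp through the detection p-values, given an offset of 16, brought to 1 set of quantiles and log2-transformed (neqc, limma 3.58.1, R 4.3.3). Python 3.11.15, pandas 2.3.3 and matplotlib 3.10.9 made the figures. Probes detected at p under 0.05 on 2 of 8 arrays were tested (23841 probes). The platform annotation gave 1 symbol for 34885 probes, and the GRCm38.p6 gene table gave the order. Group means were fitted with lmFit and eBayes, and genotype, sex and interaction contrasts were tested two-sided with Benjamini-Hochberg adjustment over all tested probes at 0.05. The script was tested on simulated data.

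Members, gene lists and tests were chosen with earlier results of these data known. Named genes are those called in any contrast, those with an unadjusted p under 0.05 or no overlap between genotypes, the 5 nearest Crim1 on each side, those whose probes differed in sign and by over 0.5, and the 5 with the widest sex difference. Deviations of same-numbered samples correlated at 0.100 (numbers 1 and 3) and 0.269 (2 and 4). With 2 arrays per group these are only 2 independent values. The design speaks of 4 pairs but does not tie them to the numbers, so a fit with the number as a block was set beside the unblocked one. Alternatives changed the background correction, scaling, filter, block, sex term, processed values, endothelial covariate and probe choice, and left out each array. There were 0 unmapped columns. The number of arrays limits precision.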

Additional observations from a re-analysis of the deposited data

Results flagged for a closer look

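In 2 of 38 groups of 4 arrays checked, 1 array lay far from the other 3, and chance gives about 1 in 20. Qpct stood at 6.06 in mutant male 2, against 6.47 to 6.54 in the other mutant arrays. Heatr5b stood at 5.07 in mutant female 3, against 5.88 to 5.96 in the other mutant arrays.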

How the results depend on the processing

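The count of neighbours called stayed at 0 for the genotype effect over both sexes, in each sex and for the interaction under every alternative run, those without 1 array included. The cause of the shifts below was not tested. The log2 difference of Crim1 kept its sign but lost its call without a detection filter (-2.33, adjusted p = 0.0774), with the replicate block (-2.33, 0.159), without a sex term (-2.33, 0.186), in the authors' deposited values (-0.72, 0.147) and with the endothelial covariate (-2.37, 0.194), and ran from -2.52 to -2.15 without single arrays. The replicate block changed no other genotype or interaction call; sex effects cannot be fitted with it, because each number belongs to 1 sex. The count called by sex was 3 without background correction, 2 with the strict filter, 2 in the authors' values, 0 with the covariate and 0 to 2 without single arrays. The sex difference of Galm was -0.52 with the covariate (adjusted p = 0.228) and -0.69 to -0.59 without single arrays.

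The median male difference was -0.12 without background correction, -0.16 with the strict filter, -0.078 in the authors' values, -0.084 with the covariate, -0.12 over the mean of probes and -0.22 to -0.11 without single arrays. Before Crim1 the median was -0.12 without background correction, -0.060 in the authors' values, -0.17 with the covariate and -0.18 over the mean of probes. After Crim1 the median ran from -0.088 to 0.042 without single arrays. The number after Crim1 with an unadjusted p under 0.05 was 2 without background correction and 2 in the authors' values. With the covariate 4 of all neighbours had one, 3 of them before Crim1, and the share over all genes was not taken. Without single arrays the median over both sexes was -0.15 to -0.073 and 5 to 8 neighbours had no overlap. Genotypes with fewer arrays separate more easily for every gene, and the share over all genes was not taken.

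Signs turned for Strn under median scaling (-0.0032), for Eif2ak2 in the authors' values (0.0026), for Lbh over the mean of its probes (0.045), and with the covariate for Galm (-0.073), Birc6 (0.039), Rasgrp3 (0.082), Heatr5b (-0.080) and Eif2ak2 (0.18). Without single arrays the sign also turned for Birc6 (-0.35 to 0.020), Strn (-0.083 to 0.15), Heatr5b (-0.056 to 0.40), Galm (-0.0071 to 0.096), Eif2ak2 (-0.093 to 0.090) and Fez2 (-0.37 to 0.0068). Signals near the detection limit, as in Lclat1 and Birc6, limit those genes.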
